A study of Mus musculus with 239 samples.

Results

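The comparison set luminal cells from pregnant mouse mammary glands against those luminal cells from virgin glands that carried almost no oestrogen receptor transcript. The pregnant group held all 49 luminal-gate cells from FVB females at day 12 of pregnancy (12.5 in the protocol). The virgin group was chosen by a measured value: it held the 21 of 54 virgin luminal-gate cells from FVB females with Esr1 below 1 FPKM (fragment counts divided by transcript length and sequencing depth). Together these were 70 of the 239 single cells in the series. All mice were females 3 to 4 months old with no transgene named in the labels, and both groups shared the sort for high CD24 and low CD29 after depletion of blood and endothelial cells, capture on Fluidigm C1 chips, SMARTer cDNA and Nextera XT libraries. The series addressed the variety and the hierarchy of epithelial cells in the gland, and the comparison describes pregnancy in the luminal gate with the hormone receptor cells of the virgin gland set aside.

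Luminal cells line the ducts and alveoli of the gland. Some of them carry oestrogen and progesterone receptors and relay hormone signals to their neighbours, while others, low in these receptors, include the progenitors of the alveolar cells that make milk. During pregnancy prolactin acts through its receptor, the kinase JAK2 and the transcription factor STAT5, with the ETS factor ELF5, to drive alveolar differentiation, and genes for caseins, whey proteins and milk fat synthesis come on before birth.

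Because Esr1 chose the virgin cells, it is described here once and is left out of the differences. No pregnant luminal cell reached 1 FPKM of Esr1, the highest being 0.988 FPKM and 38 of 49 being at 0. The highest values among the virgin cells kept were 0.856, 0.716 and 0.209 FPKM, with a median of 0.0318 FPKM. The lowest values among the 33 virgin cells set aside were 1.2, 1.41 and 2.05 FPKM, with a median of 39.8 and a highest value of 158 FPKM.

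Each library is 1 cell. The labels do not tie cells to animals, chips or days, so each group is 1 sample, no test could be made, and batch and group cannot be told apart. Values are given per cell in FPKM, and a difference is the mean over cells of log2(FPKM + 1) in pregnant cells minus that in Esr1-negative virgin cells, a scale that understates the change of low genes. The SD given is the spread over cells, not an error between animals. Depth, recovered from the steps between low values, had a median of 8.86 M fragments (2.63 to 39.9 M) in pregnant cells and 8.3 M (1.17 to 11.1 M) in Esr1-negative virgin cells, M being mega. A median of 3653 genes in pregnant cells and 3485 in Esr1-negative virgin cells reached 1 FPKM. The milk protein genes took a median of 17.6% of all FPKM in pregnant cells (0.403 to 35.8%), against 2.87% in Esr1-negative virgin cells (0.187 to 19.6%).

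Cells that stood apart were found in both groups. Among the pregnant cells, 7 of 49 carried several markers of another cell type: 5 had at least 4 contractile myoepithelial genes at 10 FPKM or more, 1 had at least 4 fibroblast genes at that level, and 1 had at least 4 endothelial genes at 1 FPKM or more. The Esr1-negative virgin cells were not screened with these limits, and no such limit was set for immune genes in either group. Among the 21 Esr1-negative virgin cells, 2 had Cited1, a cofactor of oestrogen receptor signalling, at 451 and 341 FPKM. The luminal label otherwise held in both groups. Krt18, a luminal keratin, had lowest, median and highest values of 10.7, 1319 and 7002 FPKM in pregnant cells and 279, 1418 and 7326 FPKM in Esr1-negative virgin cells. Krt8 and the adhesion molecule Epcam were likewise at 1 FPKM or more in all 49 pregnant and all 21 Esr1-negative virgin cells. By contrast, Krt5, the basal keratin, reached 1 FPKM in 4 pregnant cells. It did so in 0 of the 21 Esr1-negative virgin cells (exact interval 0 to 16.1%). None of the 11 endothelial, 9 fibroblast, 11 immune or 8 adipocyte markers reached 1 FPKM in 25% of the cells of either group; the highest share was that of Cd68, a macrophage marker, in 19% of Esr1-negative virgin cells, and in pregnant cells Cd68 and the fibroblast marker Dcn were at 8.16%.

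Across the table, 5763 of 18850 genes were at or above 1 FPKM in 25% or more of cells in whichever group had the higher mean. Of these, 630 (10.9%) were higher by 1 or more on the log2 scale in pregnant cells and 294 (5.10%) were lower by 1 or more. The median difference of the 5763 genes was 0.18, and 59.8% of them were above 0. This split moved with the scaling and with the cells used. With each cell rescaled to the same sum outside the milk protein genes, 504 genes were higher and 368 lower, so that 57.8% of the genes past 1 were higher, against 68.2% on the deposited scale. With a median-of-ratios scaling the counts were 410 and 400, 50.6% were higher, and the median difference was 0.04. Among cells in the middle of the distribution of gene number, 23 pregnant and 11 Esr1-negative virgin cells, 651 genes were higher and 703 lower, with a median difference of -0.02. For some differences near 1 in broadly expressed genes the rescaled values are given below. Where none is given, a difference near 1 may also depend on the scaling.

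**Figure D1:**
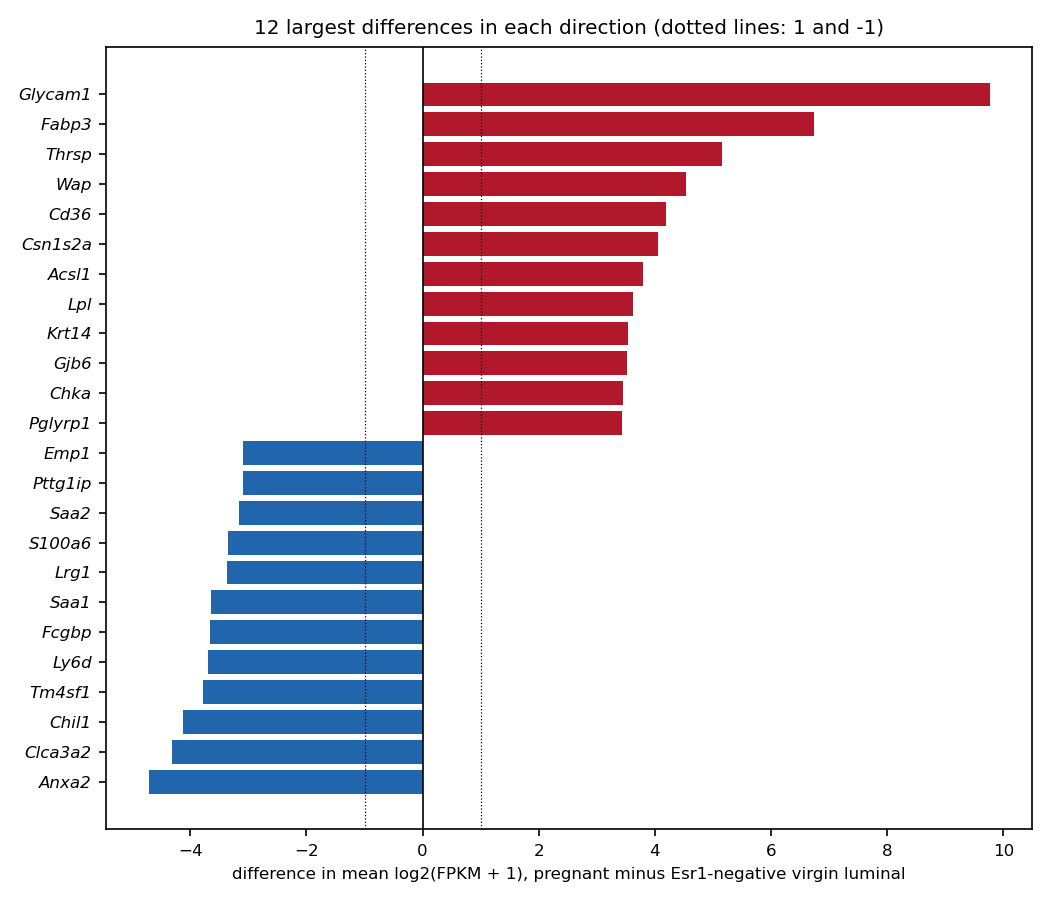
Difference in mean log2(FPKM + 1), pregnant minus Esr1-negative virgin luminal cells, for the 12 genes with the largest difference in each direction; dotted lines mark 1 and -1. Bars run up to 9.77 (Glycam1) among genes higher in pregnant cells and down to -4.72 (Anxa2) among genes lower in pregnant cells.

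Milk protein genes held the largest difference of the comparison. Of the 10 genes listed, 5 were higher by 1 or more in pregnant cells and none was lower by 1. Among all genes tested the shares were 10.9% and 5.10%. The median difference over the 10 was 1.53, beside 0.18 over all genes tested. The 5 were Glycam1, Wap, Csn1s2a, Csn2 and Csn1s1. The other members differed by less than 1.

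The letters around the start sites of these genes are shown for the 4 that held the palindrome TTCNNNGAA, the form bound by STAT5 proteins, in the RefSeq promoter window of 250 bases before to 50 after the start (build GRCm38.p6, reference strain rather than FVB). The window held this motif in 4 of the 8 listed milk protein genes with a RefSeq entry and in 8.3% of all 32851 windows of that length. An ETS-type core, CAGGAAG on either strand, which in Glycam1 did not overlap the palindrome, was in 2 of the 8, Glycam1 and Mfge8, and in 13.3% of all windows. The sequences run 5′ to 3′ on the gene's strand, with the palindrome in capitals. The first 3 are the 250 bases before the start, at chr15:103565082-103565331 (minus strand) for Glycam1, chr5:87699426-87699675 (minus strand) for Csn2 and chr5:87665958-87666207 (plus strand) for Csn1s1. For Csn1s2a the 29 bases around the match are given, at chr5:87774460-87774488 (plus strand).
Glycam1: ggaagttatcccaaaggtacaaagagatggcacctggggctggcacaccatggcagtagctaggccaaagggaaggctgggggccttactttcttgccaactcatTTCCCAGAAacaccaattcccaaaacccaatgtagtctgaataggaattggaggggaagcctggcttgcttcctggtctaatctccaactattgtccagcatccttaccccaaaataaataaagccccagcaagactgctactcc
Csn2: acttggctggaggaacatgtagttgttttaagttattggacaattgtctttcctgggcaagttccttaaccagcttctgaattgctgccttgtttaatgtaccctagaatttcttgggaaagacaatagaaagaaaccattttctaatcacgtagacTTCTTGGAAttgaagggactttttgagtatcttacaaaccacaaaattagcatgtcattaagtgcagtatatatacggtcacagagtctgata
Csn1s1: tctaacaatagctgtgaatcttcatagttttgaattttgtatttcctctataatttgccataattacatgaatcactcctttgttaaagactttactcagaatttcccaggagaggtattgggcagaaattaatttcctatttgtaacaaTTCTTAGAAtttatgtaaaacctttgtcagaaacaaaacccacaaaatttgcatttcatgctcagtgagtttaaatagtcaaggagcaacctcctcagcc
Csn1s2a: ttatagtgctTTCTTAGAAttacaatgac
The match begins at position -145 in Glycam1, -93 in Csn2 and -100 in Csn1s1, counted back from the RefSeq start, and 20 bases after the start base in Csn1s2a. GENCODE places the start elsewhere for Csn1s2a and Csn2. Its Csn1s2a gene starts at chr5:87774567 (plus strand), so the match lies before that start. Its Csn2 gene starts at chr5:87699630 (minus strand), so the match lies after that start. The windows of Wap, Lalba, Mfge8 and Muc1 did not hold these letters, Csn3 and Csn1s2b had no entry, and a match is a description of letters, not of binding.

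Glycam1 encodes a mucin-like glycoprotein secreted into milk (chromosome 15, GENCODE gene 103562759 to 103565081 of GRCm38). It had lowest, median and highest values of 84.6, 3390 and 23007 FPKM in pregnant cells, against 0, 0.145 and 92.9 FPKM in Esr1-negative virgin cells. The groups barely overlapped: 48 of 49 pregnant cells lay above the highest Esr1-negative virgin cell. The means were 11.31 ± 2.49 in pregnant cells and 1.54 ± 2.28 in Esr1-negative virgin cells (log2 scale, SD over 49 and 21 cells), a difference of 9.77, and all 49 pregnant cells but 9 of 21 Esr1-negative virgin cells were at 1 FPKM or more. For the background in cells of the other gate, 28.4% of pregnant basal cells and 5.88% of virgin basal cells reached 1 FPKM, with medians of 0.122 and 0 FPKM.

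Wap, the whey acidic protein, had lowest, median and highest values of 0, 421 and 9503 FPKM in pregnant cells and 0, 3.04 and 3380 FPKM in Esr1-negative virgin cells, a difference of 4.53. Here the groups overlapped widely, since 7 of 49 pregnant cells exceeded the highest Esr1-negative virgin cell, although 45 exceeded the Esr1-negative virgin median. Wap was at 1 FPKM or more in 93.9% of pregnant cells (exact 95% interval 83.1 to 98.7%) and 61.9% of Esr1-negative virgin cells (38.4 to 81.9%), intervals that cover counting error only here and below.

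The casein genes were already abundant in the Esr1-negative virgin cells. Csn2, beta-casein, had lowest, median and highest values of 583, 25211 and 64837 FPKM in pregnant cells and 27.5, 2424 and 28508 FPKM in Esr1-negative virgin cells (means 14.16 ± 1.73 and 10.77 ± 2.91, difference 3.39). Csn1s2a, an alpha-S2 casein, had values of 294, 22461 and 52297 FPKM in pregnant cells and 87.5, 480 and 28345 FPKM in Esr1-negative virgin cells, a difference of 4.06. Csn1s1, alpha-S1 casein, differed by 2.18, with medians of 9789 FPKM in pregnant and 1989 FPKM in Esr1-negative virgin cells. All 3 caseins were at 1 FPKM or more in all 49 pregnant and all 21 Esr1-negative virgin cells, so these differences are in level and not in the share of cells. Basal-gate cells had far less: the median of Csn2 was 1.25 FPKM in pregnant basal and 0.723 FPKM in virgin basal cells.

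Other milk protein genes differed by less than 1. Csn3, kappa-casein, which stabilises casein micelles, had medians of 5171 FPKM in pregnant and 2505 FPKM in Esr1-negative virgin cells (difference 0.79). It was 1.22 without the 7 pregnant cells with other markers and 0.09 without the 2 Cited1-high virgin cells. Lalba, alpha-lactalbumin of the lactose synthase complex, differed by 0.29 with medians of 60.9 FPKM in pregnant and 12.3 FPKM in Esr1-negative virgin cells, and by -0.21 without the 2 Cited1-high virgin cells. The mucin gene Muc1 differed by 0.89, the milk fat globule gene Mfge8 by -0.34, and Csn1s2b was at 1 FPKM or more in 4 pregnant and 2 Esr1-negative virgin cells. The levels thus overlapped broadly in all of these genes.

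**Figure D2:**
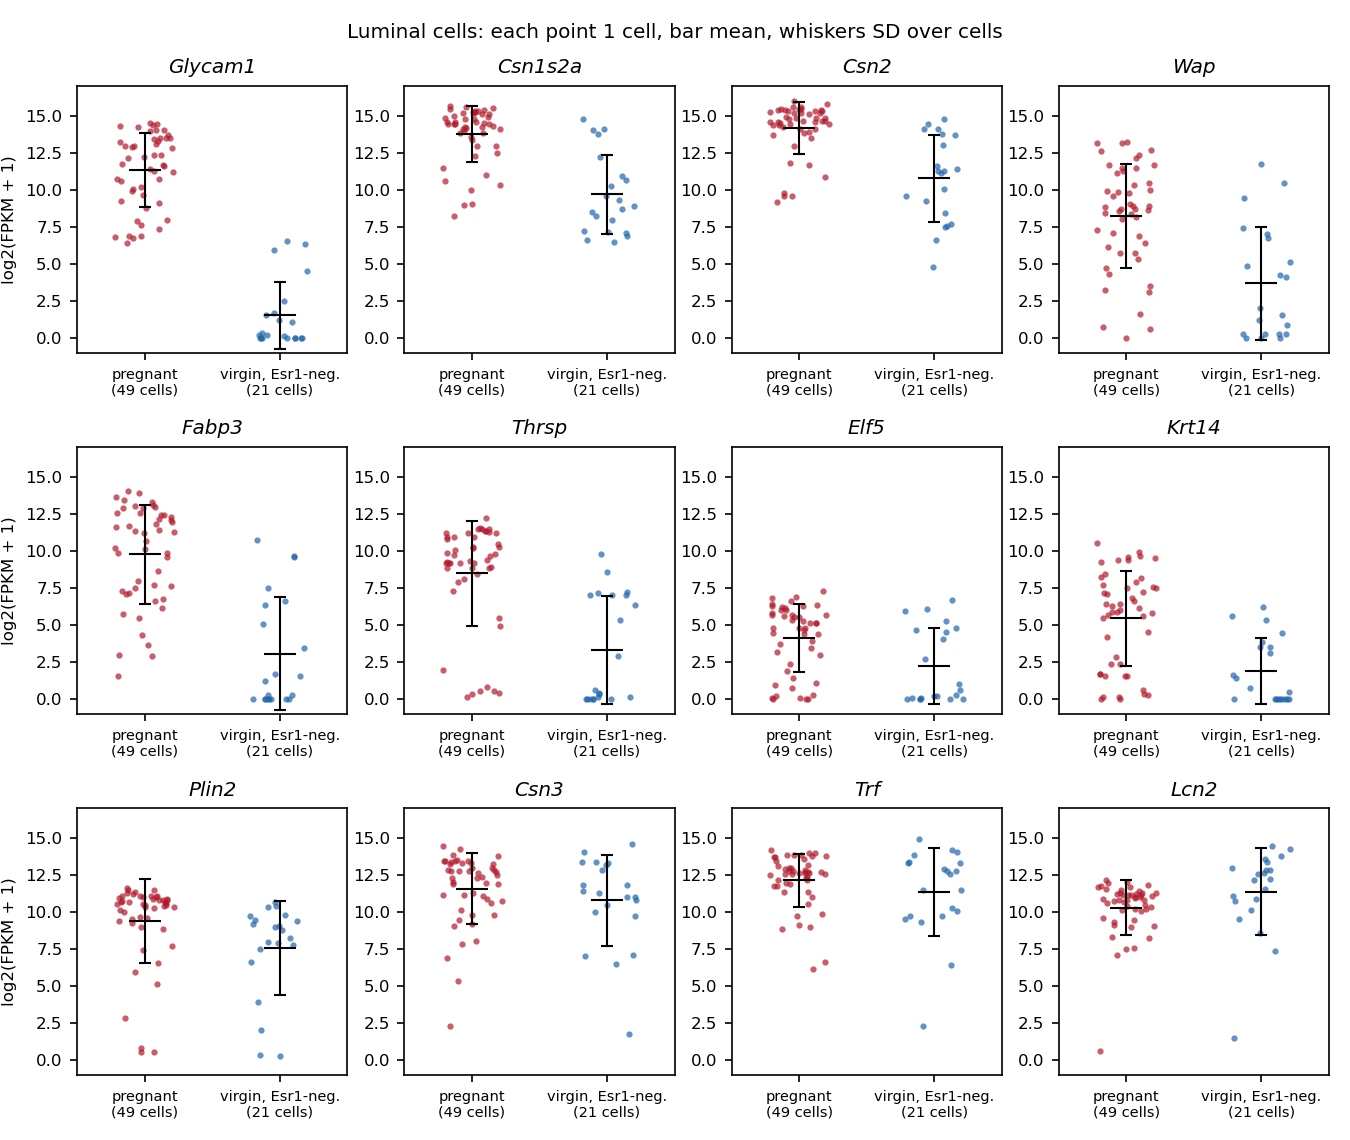
Value of 12 genes in each of 49 pregnant and 21 Esr1-negative virgin luminal cells as log2(FPKM + 1), with the mean (bar) and SD over cells (whiskers); genes are milk protein, milk fat and marker genes plus Trf and Lcn2. Glycam1 separates nearly all cells (48 of 49 pregnant cells above the highest Esr1-negative virgin cell), Fabp3 separates 25 of 49, and Csn3 and Trf overlap throughout.

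Of 20 milk fat genes, 14 were higher by 1 or more in pregnant cells and 0 were lower, with a median difference of 1.51. Among all genes tested 10.9% were higher and 5.10% lower by 1 or more. Fabp3, which carries fatty acids in the cytosol, had lowest, median and highest values of 1.99, 2319 and 17036 FPKM in pregnant cells and 0, 1.33 and 1663 FPKM in Esr1-negative virgin cells, a difference of 6.74. All 49 pregnant cells were above the Esr1-negative virgin median and 25 were above the highest Esr1-negative virgin cell. Thrsp, a regulator of fatty acid synthesis, had values of 0.0837, 661 and 4648 FPKM in pregnant cells and 0, 0.537 and 886 FPKM in Esr1-negative virgin cells (difference 5.15). It was at 1 FPKM or more in 43 of 49 pregnant and 10 of 21 Esr1-negative virgin cells.

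Genes for uptake and activation of fatty acids showed a similar spread. Cd36, a fatty acid transporter, was at 1 FPKM or more in 77.6% of pregnant cells (63.4 to 88.2%) and in 9.52% of Esr1-negative virgin cells (1.17 to 30.4%), with medians of 42.9 and 0 FPKM and a difference of 4.19. Acsl1, which activates long-chain fatty acids, differed by 3.79 (medians 63.4 FPKM in pregnant and 0.0295 FPKM in Esr1-negative virgin cells), and Lpl, lipoprotein lipase, by 3.63 (medians 68.5 and 0.445 FPKM). Plin2, which coats lipid droplets, was high in both groups, with lowest, median and highest values of 0.497, 1447 and 3117 FPKM in pregnant cells and 0.197, 442 and 1653 FPKM in Esr1-negative virgin cells. Its difference of 1.83 was 2.64 without the 7 pregnant cells with other markers, 1.07 without the 2 Cited1-high virgin cells and 0.72 against virgin cells below 1 FPKM for both Esr1 and Cited1.

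Among the other milk fat genes, the fatty acid synthase gene Fasn was higher by 2.86, the lipid phosphatase gene Lpin1 by 2.29 and the lipogenic transcription factor gene Srebf1 by 2.08. Acly, Xdh, Olah, Btn1a1 and Acaca, which act in acetyl-CoA supply, milk fat globule secretion and chain building, were higher by 1.61, 1.42, 1.37, 1.25 and 1.09. Elovl5 differed by 0.56 and the desaturase gene Scd1 by -0.52. Scd2, Gpam, Dgat1 and Dgat2 did not pass the filter on low values. These members, apart from the 5 largest and Plin2, were named after their values were seen.

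**Figure D3:**
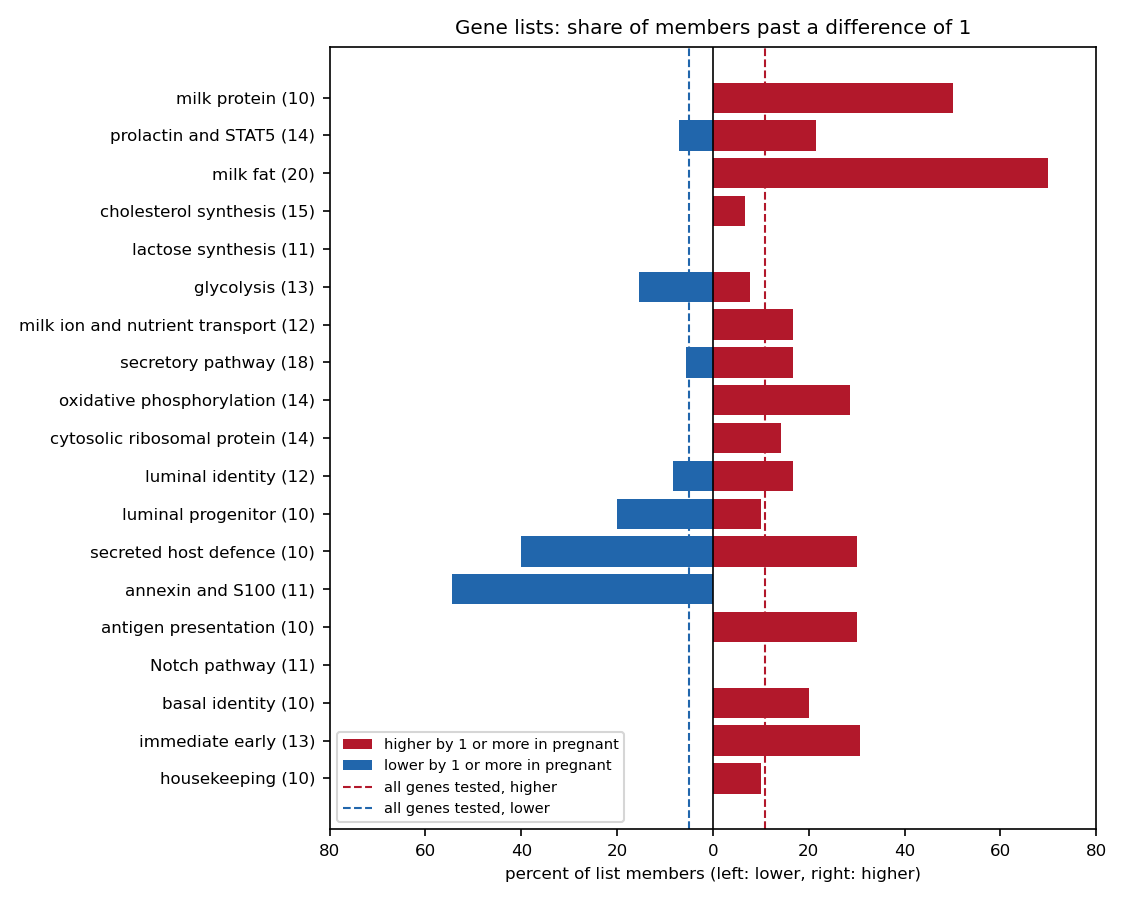
Share of the members of each gene list that differed by 1 or more, lower in pregnant cells to the left and higher to the right, with the number of members in brackets, for lists with at least 5 members past the filter on low values; dashed lines mark the shares over all genes tested, 10.9% higher and 5.10% lower. Milk fat (14 of 20 higher) and annexin and S100 genes (6 of 11 lower) lie farthest out.

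The pathway that acts upstream in alveolar cells showed no common direction. Of 14 prolactin and STAT5 genes, 3 were higher by 1 or more in pregnant cells and 1 was lower, with a median difference of 0.06. Over all genes tested, 10.9% were higher and 5.10% lower by 1 or more. Elf5 had medians of 27.2 FPKM in pregnant and 0.504 FPKM in Esr1-negative virgin cells, with cells at 0 in both groups (difference 1.87, and 0.86 with a pseudocount of 10). It reached 1 FPKM in 81.6% of pregnant (68 to 91.2%) and 47.6% of Esr1-negative virgin cells (25.7 to 70.2%). The levels overlapped, with 3 of 49 pregnant cells above the highest Esr1-negative virgin cell.

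Stat5a, the main STAT5 gene of the gland, was at 1 FPKM or more in 75.5% of pregnant cells (61.1 to 86.7%) and 33.3% of Esr1-negative virgin cells (14.6 to 57%), with medians of 11.1 and 0.391 FPKM and a difference of 1.5. It was 0.20 when only the 5 virgin cells with Esr1 at 0 were used. Cish, a feedback inhibitor that STAT5 switches on, had medians of 8.6 FPKM in pregnant and 0 FPKM in Esr1-negative virgin cells, and a share of 77.6% (63.4 to 88.2%) against 23.8% (8.22 to 47.2%), a difference of 2.32.

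The other members of this list moved little or the opposite way. Prlr, the prolactin receptor, was lower by 1.03, with lowest, median and highest values of 0.0085, 3.11 and 40.2 FPKM in pregnant cells and 0.0434, 6.57 and 232 FPKM in Esr1-negative virgin cells. Its difference was -0.57 without the 2 Cited1-high virgin cells and -0.78 without the 7 pregnant cells with other markers. The feedback inhibitor gene Socs3 was at 1 FPKM or more in 2 of 49 pregnant and 9 of 21 Esr1-negative virgin cells (difference -0.74), and Socs2 differed by -0.46. Jak2 differed by -0.31, Stat5b by 0.48, the chromatin partner gene Nfib by -0.23, Id2 by 0.25, Akt1 by 0.68 and Tnfrsf11a, the RANK receptor, by 0.32. Tnfsf11, its ligand RANKL, was at 1 FPKM or more in 1 pregnant and 1 Esr1-negative virgin cell, and Socs1 was in 0 pregnant cells and 1 Esr1-negative virgin cell.

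Milk secretion needs sugar, ions and a secretory pathway as well. None of 11 lactose synthesis genes differed by 1, their values running between -0.45 for Galt and 0.85 for the hexokinase gene Hk2. Among transport genes, Car2, carbonic anhydrase, had medians of 157 FPKM in pregnant and 51.9 FPKM in Esr1-negative virgin cells (difference 2.28, and 0.68 as the log2 of mean FPKM). The iron carrier gene Trf was abundant in both, with medians of 6267 FPKM in pregnant and 6130 FPKM in Esr1-negative virgin cells (difference 0.79), and Tfrc, its receptor, differed by 1.03 but by 0.93 after median-of-ratios scaling.

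Of 18 secretory pathway genes, 3 were higher by 1 or more and 1 was lower, with a median of 0.41. The shares over all genes tested were 10.9% and 5.10%. Xbp1, the transcription factor that expands the endoplasmic reticulum, had medians of 107 FPKM in pregnant and 15.6 FPKM in Esr1-negative virgin cells (difference 2.26), and 41 of 49 pregnant cells exceeded the Esr1-negative virgin median. Sec61b, of the protein translocation channel, differed by 1.53, and the chaperone gene Hsp90b1 by 1.08 (0.83 after median-of-ratios scaling). Pdia4, a disulphide isomerase, differed by -1.01, and by -0.64 without the 7 pregnant cells with other markers.

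Energy and translation genes showed small differences, mostly in 1 direction. Of 14 oxidative phosphorylation genes, 4 were higher by 1 or more and 13 were above 0, with a median of 0.80. All 14 of 14 cytosolic ribosomal protein genes were above 0, with a median of 0.73 and 2 past 1. Over all genes tested, 10.9% were higher by 1 or more and 59.8% were above 0. Sdhb, a subunit of complex II, differed by 1.77 (1.41 after median-of-ratios scaling). Uqcrc1, Atp5o and Atp5b of complex III and ATP synthase differed by 1.15, 1.16 and 1.03, and by 0.87, 0.91 and 0.78 after that scaling. The ribosomal stalk genes Rplp1 and Rplp0 differed by 1.13 and 1.01, and by 0.85 and 0.75. These lists thus sat above the median of all genes on the deposited scale, but 5 of the 6 members past 1 lost that mark when rescaled. Against Esr1-positive virgin cells the oxidative phosphorylation and ribosomal medians were 0.14 and 0.56. There 0 members were higher by 1 or more and 2 oxidative phosphorylation genes were lower. The shares over all genes tested in that comparison were 9.26% and 14.2%.

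Glycolysis genes were mixed. The gene for the B subunit of lactate dehydrogenase, Ldhb, had lowest, median and highest values of 0, 2.87 and 412 FPKM in pregnant cells and 0, 146 and 379 FPKM in Esr1-negative virgin cells (difference -2.45). Its partner Ldha differed by -0.93, with medians of 184 FPKM in pregnant and 198 FPKM in Esr1-negative virgin cells. Pfkp differed by -1.04 and Aldoc by 1.22, while the 9 other members lay between -0.58 for Pkm and 0.93 for Gapdh.

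Several of the other large differences in favour of pregnant cells fell outside these lists. Krt14, a keratin usually taken as basal, had lowest, median and highest values of 0, 68.3 and 1484 FPKM in pregnant cells and 0, 0.706 and 72.9 FPKM in Esr1-negative virgin cells, a difference of 3.54. It was at 1 FPKM or more in 42 of 49 pregnant cells (85.7%, 72.8 to 94.1%) and 10 of 21 Esr1-negative virgin cells (47.6%, 25.7 to 70.2%), and 24 pregnant cells exceeded the highest Esr1-negative virgin cell. Without the 7 pregnant cells with other markers, 37 of 42 had it and the difference was 3.53.

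Of 39 pregnant cells with Acta2, smooth muscle actin, below 1 FPKM, 32 had Krt14 at 1 FPKM or more, and 4 pregnant cells had both Krt5 and Krt14. Of the 10 basal identity genes, 6 passed the filter on low values and 8 were above 0. Krt14 and Lamb3, a laminin chain, were higher by 1 or more (Lamb3 by 1.05, and by 0.90 without the 7 cells), beside 10.9% of all genes tested. Of the 12 contractile genes 10 were above 0, with a median difference of 0.75, but 1 passed the filter. The summed level of the 12 contractile genes had a lowest, median and highest value of 0.54, 27.4 and 16309 FPKM in pregnant cells and 0.0468, 9.12 and 61.3 FPKM in Esr1-negative virgin cells.

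Gjb6, a gap junction connexin, was at 1 FPKM or more in 31 of 49 pregnant and 2 of 21 Esr1-negative virgin cells, with medians of 31 and 0 FPKM (difference 3.52). Chka, choline kinase of phosphatidylcholine synthesis, had lowest, median and highest values of 4.22, 144 and 1049 FPKM in pregnant cells and 0.0416, 12.9 and 287 FPKM in Esr1-negative virgin cells (difference 3.45). Pglyrp1, a peptidoglycan recognition protein, was in 30 of 49 pregnant and 2 of 21 Esr1-negative virgin cells (difference 3.43). Chka was thus at 1 FPKM or more in all 49 pregnant cells, whereas Gjb6 and Pglyrp1 were in 63.3 and 61.2% of them.

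Immediate early genes, which respond within minutes to stimuli and to tissue dissociation, were higher in part: 4 of 13 by 1 or more and 0 lower, with a median of 0.86. Over all genes tested the shares were 10.9% higher and 5.10% lower. Egr1 had medians of 152 FPKM in pregnant and 5.75 FPKM in Esr1-negative virgin cells (difference 3.37) and Atf3 of 230 and 27.6 FPKM (2.71). Ier2 differed by 2.2 and Zfp36 by 1.23, but Fos by -0.20 and Ier3 by 0.01, both named after their values were seen. Against Esr1-positive virgin cells 3 of the 13 were higher and 5 lower by 1 or more, with a median of -0.47. The shares over all genes tested there were 9.26% and 14.2%. Against all virgin luminal cells the median of the list was 0.04. The part of handling in these differences was not tested.

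The largest difference in the other direction was in Anxa2, a calcium-dependent membrane-binding annexin. It had lowest, median and highest values of 0, 4.65 and 3053 FPKM in pregnant cells and 0.476, 463 and 3750 FPKM in Esr1-negative virgin cells, with means of 3.44 ± 3.46 and 8.16 ± 2.78 and a difference of -4.72. It was at 1 FPKM or more in 55.1% of pregnant (40.2 to 69.3%) and 95.2% of Esr1-negative virgin cells (76.2 to 99.9%), and 3 of 49 pregnant cells exceeded the Esr1-negative virgin median. Of the 11 annexin and S100 genes, 6 were lower by 1 or more in pregnant cells and 0 were higher, with a median of -1. Among all genes tested 5.10% were lower and 10.9% higher by 1 or more.

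S100a6, a calcium-binding protein, was at 1 FPKM or more in 9 of 49 pregnant and 18 of 21 Esr1-negative virgin cells, with medians of 0 and 36.5 FPKM (difference -3.36). S100a16 differed by -2.12, Anxa3 by -1.28, Anxa5 by -1.08 and S100a11 by -1, while S100a10, the usual partner of the Anxa2 protein, differed by 0.14. Without the 2 Cited1-high virgin cells the count past 1 was 4. S100a10 and S100a11 were named after their values were seen.

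The keratin gene Krt7 was also lower: it was at 1 FPKM or more in 13 of 49 pregnant and 13 of 21 Esr1-negative virgin cells, with medians of 0 and 5.09 FPKM (difference -2.11). Among the other luminal identity genes, the ETS factor gene Ehf was higher by 1.14 (0.87 without the 2 Cited1-high virgin cells) and the tight junction gene Cldn4 by 1.06 (0.73 after median-of-ratios scaling). Krt8, Krt18, Krt19 and Epcam differed by 0.38, -0.31, -0.62 and -0.55.

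Chil1, Fcgbp and Lrg1 were among the 12 genes with the largest difference in this direction. Chil1, a chitinase-like protein, was at 1 FPKM or more in 3 of 49 pregnant cells (6.12%, 1.28 to 16.9%) and 11 of 21 Esr1-negative virgin cells (52.4%, 29.8 to 74.3%), with a highest value of 215 FPKM in pregnant and 2146 FPKM in Esr1-negative virgin cells (difference -4.12). Fcgbp, a mucin-like protein that binds the Fc part of IgG, had medians of 0 FPKM in pregnant and 47.8 FPKM in Esr1-negative virgin cells (difference -3.66). Lrg1, a secreted leucine-rich glycoprotein, differed by -3.37, being in 6 of 49 pregnant and 14 of 21 Esr1-negative virgin cells.

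The acute phase genes Saa1 and Saa2 differed by -3.64 and -3.17, and Clca3a2, a chloride channel accessory gene, by -4.32. These 3 have near-identical neighbours, so how their fragments were divided is uncertain. The highest value of Saa1 was 420 FPKM in pregnant and 6489 FPKM in Esr1-negative virgin cells, with medians of 0 and 10.6 FPKM. Clca3a2 was at 1 FPKM or more in 8 of 49 pregnant and 18 of 21 Esr1-negative virgin cells.

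Over all genes tested 5.10% were lower and 10.9% higher by 1 or more. Of 10 secreted host defence genes 4 were lower by 1 or more and 3 were higher. The lower ones were Wfdc2 (-2.71), Slpi (-1.92, and -1.25 without the 2 Cited1-high virgin cells), the lactoferrin gene Ltf (-1.33, named after its value was seen) and Lcn2, described with the progenitor markers. The higher ones were Wfdc18 (2.41), the polymeric immunoglobulin receptor gene Pigr (2.16) and the complement gene C3 (1.67, but 0.77 against virgin cells below 1 FPKM for both Esr1 and Cited1). Wfdc18, a WAP-domain protein gene, had lowest, median and highest values of 341, 16158 and 45962 FPKM in pregnant cells and 11.9, 3388 and 27405 FPKM in Esr1-negative virgin cells. Pigr was at 1 FPKM or more in 42 of 49 pregnant and 9 of 21 Esr1-negative virgin cells.

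Membrane genes made up much of the rest of the 12 largest. Tm4sf1 differed by -3.78 (medians 0.0617 FPKM in pregnant and 88.8 FPKM in Esr1-negative virgin cells), Pttg1ip by -3.10 (3.31 and 86.9 FPKM) and Emp1 by -3.09 (0 and 5.08 FPKM). Ly6d, a surface antigen, was at 1 FPKM or more in 2 of 49 pregnant and 17 of 21 Esr1-negative virgin cells (difference -3.69). Spp1, osteopontin, chosen after its values were seen, was at 1 FPKM or more in 48 of 49 pregnant cells and all 21 Esr1-negative virgin cells, with medians of 539 and 3612 FPKM and a difference of -2.66.

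Of 10 luminal progenitor markers, 1 was higher and 2 were lower by 1 or more in pregnant cells, against 10.9% and 5.10% of all genes tested. The median of the 10 markers was -0.61, with 2 of 10 above 0. Kit, a receptor of luminal progenitors, was at 1 FPKM or more in 57.1% of both groups (28 of 49 pregnant and 12 of 21 Esr1-negative virgin cells), with a difference of -0.13. Sox10 differed by 0.86, Sox9 by -0.63, Plet1 by -0.80, Itga2 by -0.65, Aldh1a3 by -0.59 and Itgb3 by -0.46.

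Cd14, a co-receptor for bacterial lipopolysaccharide, had lowest, median and highest values of 0, 48.2 and 1193 FPKM in pregnant cells and 0, 404 and 2551 FPKM in Esr1-negative virgin cells (difference -2.38). Lcn2, lipocalin, was abundant in both, with values of 0.562, 1817 and 4431 FPKM in pregnant cells and 1.8, 4841 and 21900 FPKM in Esr1-negative virgin cells. No pregnant cell reached the Esr1-negative virgin median, and 12 of 21 Esr1-negative virgin cells exceeded the highest pregnant cell. The difference of Lcn2 in mean log2 was -1.08, and it was -0.95 without the 7 pregnant cells with other markers and -1.81 without the 2 Cited1-high virgin cells.

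**Figure D4:**
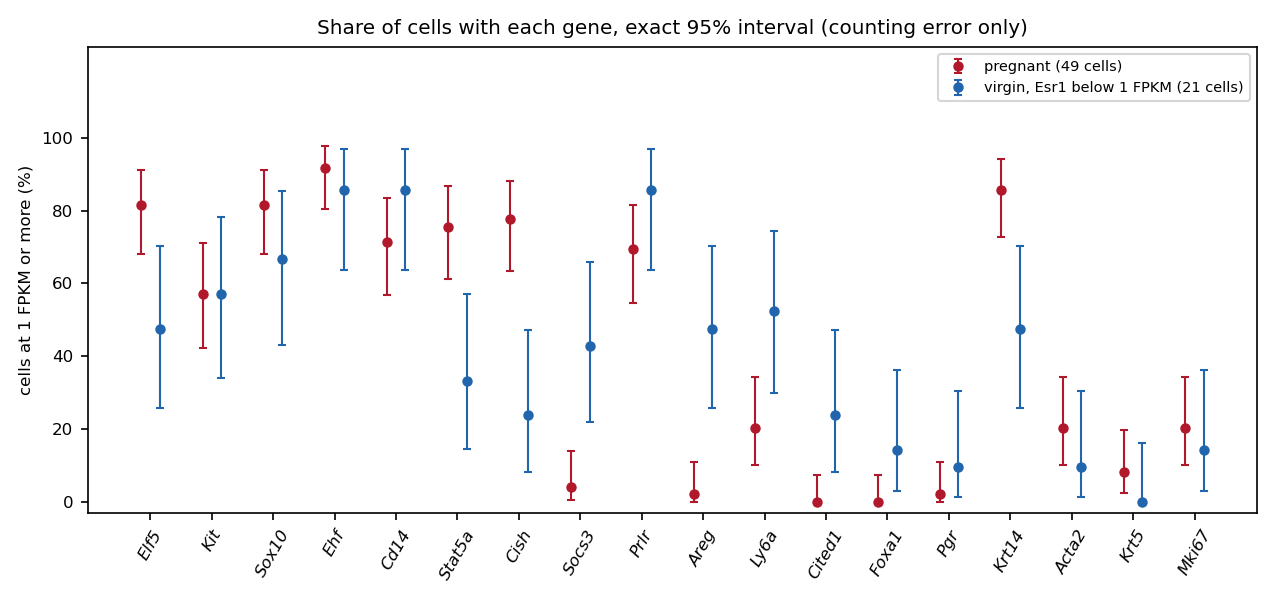
Share of cells at 1 FPKM or more for 18 genes in pregnant (49 cells) and Esr1-negative virgin luminal cells (21 cells), in percent, with exact 95% intervals for counting error only. Elf5, Stat5a, Cish and Krt14 have higher shares in pregnant cells, Socs3, Areg, Ly6a and Cited1 lower ones, and Kit has the same share in both.

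Setting Esr1-positive cells aside did not remove all hormone-sensing transcripts from the virgin group. Of 10 hormone-sensing genes other than Esr1, the lowest, median and highest number at 1 FPKM or more per cell was 0, 1 and 5 in pregnant cells, 1, 3 and 9 in Esr1-negative virgin cells and 4, 8 and 10 in Esr1-positive virgin cells. At least 5 were found in 1 of 49 pregnant, 3 of 21 Esr1-negative virgin and 32 of 33 Esr1-positive virgin cells. Areg, an EGF receptor ligand that relays oestrogen signals, was at 1 FPKM or more in 1 of 49 pregnant and 10 of 21 Esr1-negative virgin cells (difference -2.02), and the surface gene Ly6a in 10 of 49 and 11 of 21 cells (-2.10).

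Cited1 reached 1 FPKM in 0 of 49 pregnant cells (exact interval 0 to 7.25%) and in 5 of 21 Esr1-negative virgin cells. Pgr, the progesterone receptor gene, reached it in 1 and 2 cells, Foxa1 in 0 and 3, Prom1 in 0 and 2, Tbx3 in 2 and 2, and Wnt4 in 10 of 49 pregnant and 4 of 21 Esr1-negative virgin cells. The 2 Cited1-high virgin cells, numbered 11 and 26 among virgin luminal cells, had Ptn at 1266 and 722 FPKM and Wfdc2 at 630 and 494 FPKM, and Elf5 at 0 and 0.0551 FPKM. Ptn was chosen after its values were seen.

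Setting the pregnant cells against the Esr1-positive virgin cells gave other values for many of the same genes. Both comparisons use the same pregnant cells, so the values are only placed side by side. Against Esr1-positive virgin cells 9.26% of 6407 genes tested were higher by 1 or more and 14.2% were lower. The milk protein list had a median difference of 1.53 against Esr1-negative and 4.47 against Esr1-positive virgin cells, with 5 and 9 of 10 genes higher by 1 or more. Csn3 differed by 0.79 and 4.43, Mfge8 by -0.34 and 3.08, Trf by 0.79 and 5.27 and Plin2 by 1.83 and 5.68. In contrast, Glycam1 (9.77 and 9.69), Wap (4.53 and 4.52) and Cd36 (4.19 and 4.39) gave nearly the same value with either virgin group. Of the 20 milk fat genes, 14 were higher by 1 or more in each comparison, 0 were lower by 1 against Esr1-negative and 1 (Dgat2, by -2.62, named after its value was seen) against Esr1-positive virgin cells, and the medians were 1.51 and 2.41.

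Among genes lower in pregnant cells, S100a6 differed by -3.36 against Esr1-negative and -8.17 against Esr1-positive virgin cells, Wfdc2 by -2.71 and -8.72, and Ly6d by -3.69 and -8.45. Fcgbp went the other way in size, with -3.66 and -0.45, as did Chil1 with -4.12 and -1.66 and Spp1 with -2.66 and -0.55. Of the 10 hormone-sensing genes, 3 passed the filter on low values against Esr1-negative cells, and these 3 were lower by 1 or more. Among all genes tested 5.10% were lower. Areg and Ly6a passed the filter only through the virgin cells, where they were higher. Against Esr1-positive cells 9 passed it and were lower by 1 or more, beside 14.2% of genes tested. Those cells were chosen by Esr1, itself a hormone receptor gene, so this count is not independent of the choice. Cited1 differed by -1.19 against Esr1-negative cells, without passing the filter, and by -8.16 against Esr1-positive cells.

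Differences of 1 or more with opposite signs in the 2 comparisons occurred both ways round. Among the genes named here, Lcn2 (-1.08 and 4.23), Ldhb (-2.45 and 1.62), Cd14 (-2.38 and 1.26), Ltf (-1.33 and 1.22) and Igfbp5, an IGF-binding protein gene (-1.19 and 2.26), were lower against Esr1-negative and higher against Esr1-positive virgin cells, and Cldn4 was higher and lower (1.06 and -1.61). These are examples and say nothing of how many genes had each pattern. Igfbp5 was named after its values were seen. Against all 54 virgin luminal cells together, 496 genes were higher and 514 lower by 1 or more.

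**Figure D5:**
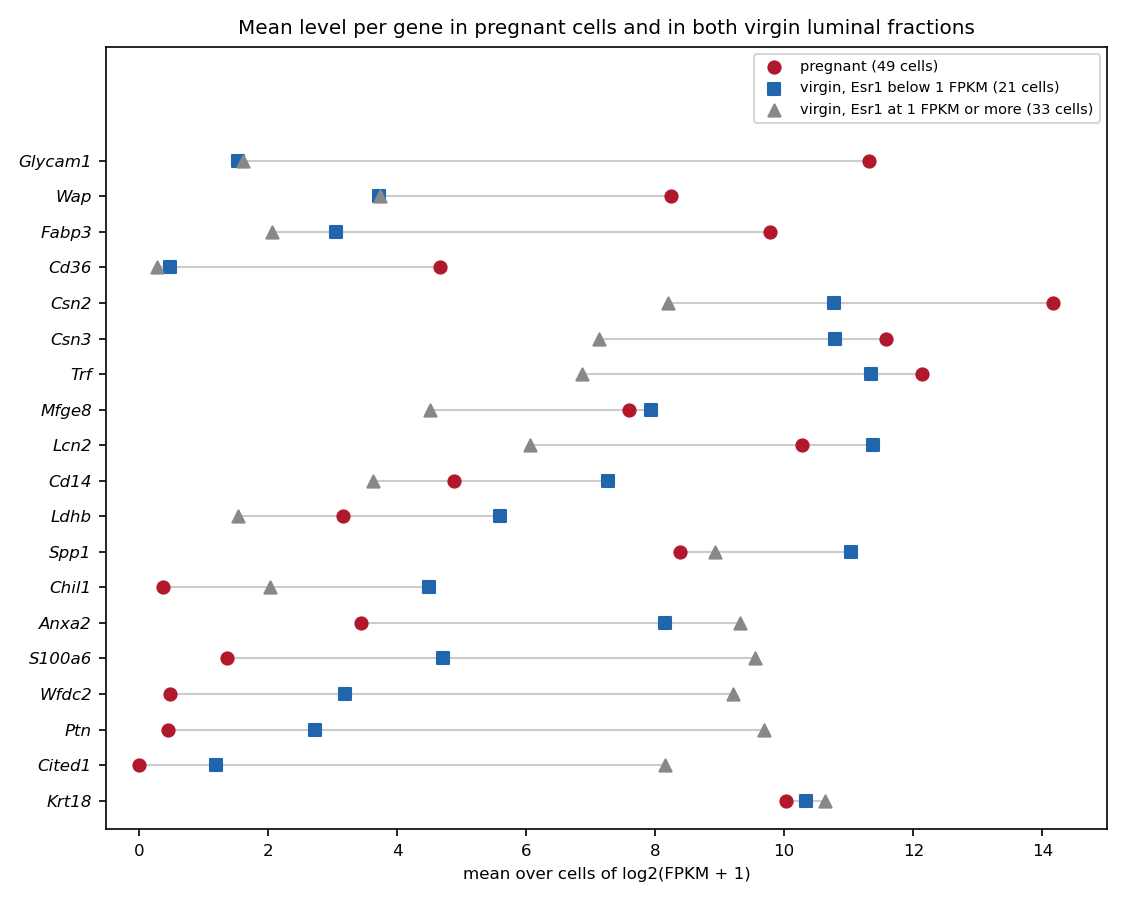
Mean log2(FPKM + 1) of 19 genes in pregnant cells (49, circles), Esr1-negative virgin cells (21, squares) and Esr1-positive virgin cells (33, triangles). For Glycam1, Wap and Cd36 both virgin groups lie together; for Lcn2, Cd14 and Ldhb the pregnant mean lies between the 2 virgin groups; for S100a6, Wfdc2, Ptn and Cited1 the Esr1-positive cells lie far to the right.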

How the data were processed

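Single luminal cells were profiled by RNA-seq, 1 cell per library. The authors deposited 1 table of FPKM values (18850 genes, 239 cells). No header gives that unit; it rests on the named tools and the range of values. Reads were handled with Trimmomatic 0.35, TopHat2 2.0.13 and Cufflinks 2.2.1 on the mouse build mm10, also called GRCm38, per the submitters' processing notes. The sources used here do not give their annotation or filters. Capture sites were inspected for doublets by microscope, per the labels' protocols, and no doublet caller was run here. All columns were matched to samples (0 without one).

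Groups were formed from the labels and, within virgin luminal cells, from Esr1 below 1 FPKM. Per gene, log2(FPKM + 1) was averaged over cells (pseudocount 1) and the means were subtracted, with the SD over cells. Shares of cells at 1 FPKM or more were given exact Clopper-Pearson 95% intervals, also for a count of 0. A gene counted as higher or lower when the difference reached 1 in size and 1 FPKM was reached by 25% or more of cells in whichever group had the higher mean. Cells are not replicates, so no test was made. PCR copies cannot be told from molecules, and intervals cover counting error only.

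Relative depth came from whole steps between low FPKM values: of 527987 values below 20 steps in 10942 genes, 2 were farther than 0.05 of a step from a whole number. The lengths of 846 single-transcript genes set the scale. The step reading was checked on simulated data.

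Named genes were the 12 most different in each direction, up to 5 of each described list with the largest differences, all members of the milk protein, prolactin and STAT5, luminal progenitor and hormone-sensing lists, and a few markers. The members, the 28 lists (327 genes) and the alternatives were chosen with earlier results of these data known. Alternatives were other pseudocounts, filters, Esr1 limits, scalings and subsets of cells. Coordinates are from GENCODE M21 (GRCm38) and promoter letters from RefSeq. Python 3.11.15, pandas 2.3.3, numpy 2.4.6 and scipy 1.17.1 were used.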

Additional observations from a re-analysis of the deposited data

How the results depend on the processing

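Among the 17 alternatives, no filter and a filter of 1 FPKM in 50% of cells changed only which genes were tested. They could not move a gene's difference. Of the 75 named genes that differed by 1 or more, 40 stayed past 1 in the same direction under all 17 alternatives. The other 35 came below 1 in size or changed sign under at least 1 alternative, among them Elf5 and Areg (0.86 and -0.79 with a pseudocount of 10), Stat5a (0.20 with virgin cells at 0 for Esr1), Plin2, C3, Ehf and Anxa3 (0.72, 0.77, 0.36 and -0.61 with virgin cells below 1 FPKM for both Esr1 and Cited1), Psmb9 (0.91 in cells of middle gene number) and Car2 (0.68 as the log2 of mean FPKM). With a pseudocount of 0.1, 1452 genes were higher and 683 lower in pregnant cells by 1 or more; with a pseudocount of 10 the counts were 117 and 57, with 8 milk fat genes higher and 3 annexin and S100 genes lower, since a larger pseudocount shrinks differences of low genes. With the 5 virgin cells at 0 for Esr1 the counts were 1710 and 584, and Ldhb differed by 0.06. Fewer virgin cells enter there, and whether that moved the counts was not tested. With virgin cells below 10 FPKM of Esr1, Cldn4 differed by -0.01 and Lcn2 by 0.50. Against all virgin luminal cells 514 genes were lower, 9 milk protein and 9 annexin and S100 genes passed 1, and Ldhb, Cldn4 and Lcn2 differed by 0.04, -0.57 and 2.16. With virgin cells below 1 FPKM for both Esr1 and Cited1, 449 genes were lower. Median-of-ratios scaling left 410 genes higher. In cells from the middle of the distribution of gene number, 651 genes were higher and 703 lower, against 630 and 294 over all cells, and Hsp90b1 differed by -0.19. With the log2 of the mean FPKM the counts were 1053 and 584, and Tfrc and Cldn4 differed by -0.65 and -0.24. Where no reason is given the cause was not tested. Without the 7 pregnant cells with other markers the counts were 815 higher and 287 lower, and without the 2 Cited1-high virgin cells 691 and 307; these 2 alternatives were chosen after seeing the data. No paired analysis was possible because the results come from no test and the numbers in the labels only number cells. With 21 virgin cells, a share of 0 allows up to 16.1% by the exact interval, and low genes may be missed at these depths.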

Other observations

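Of 10 antigen presentation genes, 3 were higher by 1 or more in pregnant cells, 0 were lower and 4 did not pass the filter on low values. All genes tested had 10.9% higher and 5.10% lower. The immunoproteasome genes Psmb9 and Psmb8 and the peptide transporter gene Tap1 were higher in pregnant cells by 1.80, 1.37 and 1.13 (Tap1 by 0.98 after median-of-ratios scaling). Psmb9 was at 1 FPKM or more in 27 of 49 pregnant and 6 of 21 Esr1-negative virgin cells, and Psmb8 had medians of 124 FPKM in pregnant and 51.1 FPKM in Esr1-negative virgin cells. The class I genes were abundant in both groups: H2-K1 differed by 0.63, and B2m by -0.33 with medians of 1126 FPKM in pregnant and 1361 FPKM in Esr1-negative virgin cells. Against Esr1-positive virgin cells, Psmb9 and Psmb8 differed by -0.74 and -0.87.

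Cholesterol synthesis genes were largely below a difference of 1. Idi1, an isomerase of the pathway, was at 1 FPKM or more in 21 of 49 pregnant and 1 of 21 Esr1-negative virgin cells (difference 1.56), and it was the 1 member of 15 past 1, with a list median of 0.55. In the Notch list no gene of 11 passed 1, with Hes1, Notch1 and Rbpj at 0.78, 0.76 and 0.71 and Notch2 at -0.49. Of 12 DNA replication and 12 mitosis genes, 3 and 1 passed the filter on low values and 0 differed by 1. Pcna, the replication clamp, was at 1 FPKM or more in 55.1% of pregnant and 66.7% of Esr1-negative virgin cells (difference -0.73), and Mki67, a marker of cycling cells, in 10 of 49 pregnant and 3 of 21 Esr1-negative virgin cells. The haptoglobin gene Hp and the coagulation factor gene F3, named after their values were seen, differed by -2.89 and -2.51. Hp was at 1 FPKM or more in 2 of 49 pregnant and 12 of 21 Esr1-negative virgin cells, and F3 in 18 and 15. The housekeeping gene Actb differed by -0.08, and Sdha, the 1 of 10 housekeeping genes past 1, by 1.85.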
